A study of Mus musculus with 15 samples.

Results

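A set of 7 cytokine genes, Il23a, Csf2, Il1f6, Il6, Il1b, Tnf and Lif, were followed through an ATAC-seq study of mouse liver, an assay in which a transposase cuts accessible chromatin. Each row of the study's matrix is 1 genomic region with a read-based value per library, and a row was counted for a gene when its midpoint lay in the gene's body or, failing that, when that body was the nearest within 50 kb. This gave 28 of 93217 rows and 7 of 21896 protein-coding genes, of which 16719 had a row. Il23a, Csf2 and Il1f6 had been selected on their measured rise in biliary cells of DDC-treated against untreated mice, so that rise is described below without a test. Il6, Il1b, Tnf and Lif joined them as related cytokines. Only distance chose the rows. The outermost was row 1 of Csf2, at 45.37 kb, and no row between 50 kb and 100 kb from a member had that member as its nearest gene.

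The 15 libraries fell into 5 groups of 3: biliary cells and hepatocytes without treatment, and 3 populations labelled DDC, namely biliary cells, hepatocytes and reprogrammed hepatocytes. DDC is the usual short name of diethoxycarbonyl-dihydrocollidine, a diet additive that injures bile ducts. The mouse strain, age, genotype, length of treatment, sort markers and the means of recognising reprogrammed cells are not stated in the sources at hand, and nothing says whether libraries came from separate animals, so p-values measure only the spread between these libraries, which may be technical. Cells were taken by sorting straight from the liver.

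Values below are nuclear RPM, reads in a row per 1e6 reads in all rows outside the mitochondrial chromosome. Depth differed between groups: 201705 to 605309 nuclear reads in untreated hepatocytes, 1191409 to 2342643 in DDC hepatocytes, 4756891 to 9829886 in reprogrammed cells, 5151190 to 10395918 in DDC biliary cells and, for biliary cells without treatment, 2439831 to 4389653. A single read was therefore worth 1.65 to 4.96 nuclear RPM in untreated hepatocytes and 0.102 to 0.210 in reprogrammed cells, and 0 reads in 1 untreated hepatocyte library allows a level of up to 4.96 to 14.9 (3 reads; counting error only). The labelled cell types showed their markers: 7 biliary markers summed to 1079 to 1196 in untreated biliary cells and 278 to 421 in untreated hepatocytes, and 6 hepatocyte markers to 309 to 657 and 1925 to 2972. Between libraries of a group, chi-square per degree of freedom was 2.34 to 8.20, more than counting noise.

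These genes encode secreted signals of inflammation. Il23a encodes the p19 subunit that pairs with p40 (Il12b) to form IL-23, Csf2 the growth factor GM-CSF of granulocytes and macrophages, and Il1f6 the epithelial cytokine IL-36 alpha, which signals through Il1rl2. Tnf, Il1b and Il6 are the classic early inflammatory cytokines, with IL-6 acting on hepatocytes through Il6ra and Il6st, and Lif encodes a relative of IL-6 that uses Lifr with the same Il6st. Many of them are induced by the transcription factors NF-kB and AP-1 acting at promoters and at enhancers that can lie far from the gene. Accessibility of a row is not expression of the gene.

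The rows differed in where they stood relative to the genes' starts, and promoter sequences are shown to make that plain. RefSeq (GRCm38.p6, the same assembly as mm10) gave the promoter of 5 of the 7 members; Il23a and Il1f6 were not in that table. The 250 bases before the start were searched on both strands for the AP-1 site TGANTCA and for the NF-kB consensus. Matches are in capitals, and no other meaning attaches to case. The promoter of Lif (chr11:4257318-4257567, plus strand) and that of Tnf (chr17:35202008-35202257, minus strand) lay wholly inside an accessible row. For Csf2 (chr11:54249900-54250149, minus strand) 5 of the bases lay in a row, and for Il6 (chr5:30012864-30013113, plus strand) 47 did:
Lif: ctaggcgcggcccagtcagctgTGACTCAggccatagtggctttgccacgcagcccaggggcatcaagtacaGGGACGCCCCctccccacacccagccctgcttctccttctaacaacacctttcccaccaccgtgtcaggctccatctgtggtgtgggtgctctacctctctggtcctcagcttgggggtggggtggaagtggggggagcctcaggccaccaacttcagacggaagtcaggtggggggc
Tnf: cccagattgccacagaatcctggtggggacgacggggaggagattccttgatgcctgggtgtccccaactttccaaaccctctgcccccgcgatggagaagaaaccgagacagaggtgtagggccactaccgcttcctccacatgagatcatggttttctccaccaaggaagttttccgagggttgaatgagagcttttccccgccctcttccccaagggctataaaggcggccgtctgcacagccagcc
Csf2: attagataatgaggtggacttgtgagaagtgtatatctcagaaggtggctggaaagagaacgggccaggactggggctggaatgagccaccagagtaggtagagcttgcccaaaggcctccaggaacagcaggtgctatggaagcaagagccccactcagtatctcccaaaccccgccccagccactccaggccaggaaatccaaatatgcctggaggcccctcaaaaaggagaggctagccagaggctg
Il6: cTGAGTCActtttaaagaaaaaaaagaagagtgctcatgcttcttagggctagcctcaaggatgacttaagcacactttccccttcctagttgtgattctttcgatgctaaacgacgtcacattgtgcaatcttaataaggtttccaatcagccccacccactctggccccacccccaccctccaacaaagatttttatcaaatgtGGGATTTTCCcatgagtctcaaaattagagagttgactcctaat
The Lif window held an AP-1 match that begins 228 bases before the start and an NF-kB match at 178. The Il6 window held an AP-1 match at 249 and an NF-kB match at 44. Neither motif was in these 250 bases of Tnf, Csf2 or Il1b, whose promoter (chr2:129371140-129371389, minus strand) overlapped no row. Of 32851 promoter windows of this length, 6.75% held the AP-1 site and 7.25% the NF-kB consensus. A match is a description of letters, not a measured site.

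**Figure D1:**
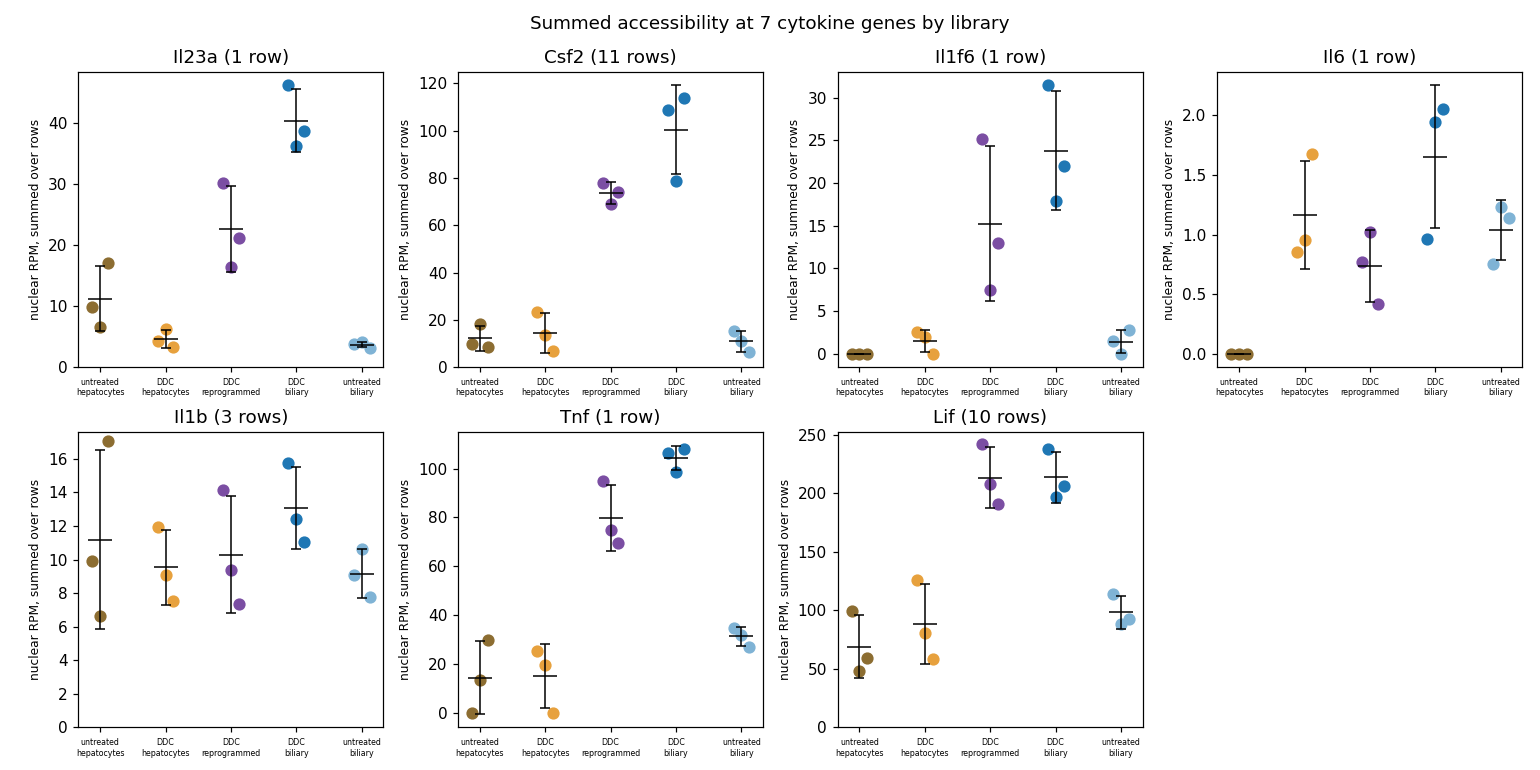
Summed nuclear RPM of the rows of each gene (y axis, linear, 1 scale per panel) in the 15 libraries by group (x axis); points are libraries, horizontal marks the mean and bars the SD over 3. Il23a, Csf2, Il1f6, Tnf and Lif are high in reprogrammed and DDC biliary cells, while Il6 stays at or below 2.05 and the Il1b points of reprogrammed cells and DDC hepatocytes overlap.

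Reprogrammed cells were more accessible than DDC hepatocytes at Il23a, Csf2, Il1f6 and Lif, while Il1b libraries overlapped and Il6 was near the limit of detection. This comparison asks what sets reprogrammed hepatocytes apart from other hepatocytes of injured liver. Neither of its groups entered the biliary comparison on which Il23a, Csf2 and Il1f6 were chosen. Members were, however, chosen with earlier results of these data known, so the counts below are not those of an unselected set. Higher values were called for 4 of the 7 genes (6 tested, those with a mean of 1 nuclear RPM or more) against a background of 8.0% of 16378 genes, and lower values for 0 of 7 against 6.43% (limma-trend on log2 of nuclear RPM + 1, Benjamini-Hochberg adjusted p under 0.05; 0 of the members fell at unadjusted p under 0.05, and 0 with edgeR). Among rows 9 of 28 were called higher (23 tested, of which 20, 8 of them called, reach the mean of 1 without the DDC biliary libraries; background 8.14% of 79075) and 0 lower (6.06%; 0 at unadjusted p under 0.05, and 0 with edgeR). In mixed populations, more cells of a type and more signal per cell cannot be told apart.

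The Il23a row (chr10:128296795-128299011, 2217 bp) covered most of the gene body (chr10:128296140-128298084) and ran past its higher-coordinate end, toward Pan2 at 5.25 kb. Its nuclear RPM was 4.27, 6.22 and 3.36 in DDC hepatocytes and 30.3, 16.5 and 21.2 in reprogrammed cells. DDC biliary cells had 46.3, 36.3 and 38.7, and untreated biliary cells 3.78, 4.10 and 3.19. Reprogrammed libraries lay above all DDC hepatocyte libraries and below all DDC biliary ones, with no overlap. On the log2 scale Il23a rose by 2.06 ± 0.40 (SE, n = 3 per group, adjusted p = 0.00354, limma) from DDC hepatocytes to reprogrammed cells, on group means of 4.62 ± 1.47 and 22.7 ± 6.99 (SD). Untreated hepatocytes read 9.92, 6.61 and 17.0, but these rest on 10 reads in all. The difference of DDC from untreated hepatocytes (−1.06 ± 0.40, adjusted p = 0.0892) did not pass, although the groups did not overlap. Without untreated hepatocyte library 2 it passed (−1.35, adjusted p = 0.0179), and its sign turned on the deposited scale (0.28), after thinning to the lowest depth (0.26) and with all rows within 50 kb (0.18).

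Csf2 was represented by 11 rows over 11265 bp, and its signal came from beyond the gene, not from its start. The gene (chr11:54247270-54249899) is transcribed toward lower coordinates. Past its 3′ end lay 9 of the rows, in the interval without another protein-coding gene that stretches to P4ha2, 115.6 kb away. A single row lay on the side of Il3, the neighbour at 15.2 kb. The rows together gave 23.5, 13.4 and 6.71 in DDC hepatocytes and 77.9, 69.0 and 74.2 in reprogrammed cells. In DDC biliary cells they gave 109, 78.8 and 114, and in untreated biliary cells 15.5, 11.1 and 6.61. Reprogrammed cells were close to each other, above every hepatocyte library and just below the lowest DDC biliary one. The sum rose by 2.42 ± 0.41 (n = 3 per group, adjusted p = 0.00150, limma).

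Of the downstream rows of Csf2, 4 were called, with row 4 at 31.2 kb (chr11:54214232-54217949, 3718 bp) the one with the highest level. Row 4 read 11.5, 3.83 and 3.36 in DDC hepatocytes and 41.9, 36.6 and 31.1 in reprogrammed cells (2.54 ± 0.64, adjusted p = 0.0172). It held 49.6% of the Csf2 sum in reprogrammed cells and 37.4% in DDC biliary cells. Row 8 at 10.1 kb (chr11:54236761-54237532) went from 1.71, 0.958 and 1.68 to 15.3, 13.9 and 9.25 (2.49 ± 0.44, adjusted p = 0.00361). Per kb, row 8 stood at percentile 30.4 of all rows in DDC hepatocytes, 90.2 in reprogrammed cells, 6.13 in biliary cells without treatment and 92.8 in DDC biliary cells.

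Row 6 of Csf2 at 22.8 kb (chr11:54223834-54225108) read 2.56, 0.958 and 0 in DDC hepatocytes and 8.33, 7.63 and 12.2 in reprogrammed cells (2.42 ± 0.57, adjusted p = 0.0129). Row 2 at 40.1 kb (chr11:54206760-54207551) had 0 reads in all 3 DDC hepatocyte libraries and 2.08, 1.22 and 5.47 nuclear RPM in reprogrammed cells, at least 5.48-fold higher than 3 reads over the group (1.82 ± 0.46, adjusted p = 0.0168). This row was tested only because DDC biliary cells are high in it: its mean without them is 0.825, under the filter of 1. The row at the start of the gene, row 10, differed from these: it read 0, 0.479 and 0 in DDC hepatocytes and 0.658, 1.32 and 1.89 in reprogrammed cells, below the mean needed for a test. In DDC biliary cells row 10 read 1.92, 0.971 and 2.64, which was 1.84% of the Csf2 sum. The other 6 rows of Csf2 each had group means of 5.91 or less in every group.

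Il1f6 had a single row (chr2:24214506-24215844, 1339 bp) that touched the lower-coordinate end of its body (chr2:24215417-24225701). It read 2.56, 1.92 and 0 in DDC hepatocytes and 25.2, 7.53 and 13 in reprogrammed cells, without overlap. The rise was 2.75 ± 0.60 (n = 3 per group, adjusted p = 0.00675, limma), on means of 1.49 ± 1.33 and 15.3 ± 9.05. Reprogrammed library 1 was the highest and library 2 the lowest, as at Il23a. DDC biliary cells had 31.5, 17.9 and 22.0 and untreated biliary cells 1.51, 0 and 2.73, so that the lowest reprogrammed library stood above every untreated one. No read fell in this row in untreated hepatocytes.

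Of the IL-1 family neighbours of Il1f6, Il1f9 and Il1f10 moved in opposite directions, and Il1f5 and Il1f8 had no row. Il1f9, which encodes IL-36 gamma and lies 21.85 kb away, fell from 18.8, 14.4 and 22.7 in DDC hepatocytes to 1.64, 1.02 and 5.47 in reprogrammed cells (−2.57 ± 0.66, adjusted p = 0.0175, limma). It lost its call without reprogrammed library 1 (adjusted p = 0.0774) or 2 (0.0896), or DDC hepatocyte library 3 (0.0558). Il1f10, which encodes IL-38, rose from 2.99, 1.92 and 0.839 to 15.9, 9.56 and 16 (2.38 ± 0.50, adjusted p = 0.00547). It was not above untreated cells, since Il1f10 read 14.9, 4.96 and 25.5 in untreated hepatocytes and 23.4, 31.2 and 30.5 in untreated biliary cells. At the low depth of untreated hepatocytes, Il1f10 was called lower in DDC than in untreated hepatocytes (−2.29 ± 0.50, adjusted p = 0.00905, limma). The receptor gene of the IL-36 cytokines, Il1rl2, stood at 0.28 ± 0.63 (adjusted p = 0.838).

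Lif had 10 rows, with signal at its start as well as beyond its end. The gene (chr11:4257568-4272514) is transcribed toward higher coordinates. Its sum was 126, 80.4 and 58.8 in DDC hepatocytes and 242, 208 and 190.5 in reprogrammed cells, again without overlap, a rise of 1.33 ± 0.26 (n = 3 per group, adjusted p = 0.00376, limma). DDC biliary cells read 238, 197 and 206 and untreated biliary cells 114, 88.1 and 92.5. Reprogrammed and DDC biliary libraries overlapped fully.

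Row 1 of Lif (chr11:4257183-4265123, 7941 bp), which holds the promoter printed above, read 47.0, 15.3 and 21.8 in DDC hepatocytes and 94.0, 76.8 and 69.4 in reprogrammed cells (1.62 ± 0.38, adjusted p = 0.0116). Row 8 at 25.1 kb (chr11:4294229-4300910) went from 30.3, 24.9 and 16.8 to 66.1, 55.1 and 52.6 (1.27 ± 0.41, adjusted p = 0.04996), at the edge of the threshold. Row 10 at 36.4 kb (chr11:4307947-4309913) went from 1.71, 2.87 and 0 to 13.9, 12.9 and 12.2 (2.68 ± 0.70, adjusted p = 0.0195). This row lay between Lif and Hormad2, genes 73.3 kb apart, with its midpoint 36.4 kb from Lif. Its reads therefore cannot be given to Lif alone. Thus the row that holds the start of Lif was called along with a pair of rows past its 3′ end. Csf2 had called rows past its 3′ end, while its row at the start, row 10, was too low for a test. The calls therefore cannot compare the starts of these genes, and the difference between the genes was not tested.

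Tnf had 1 wide row (chr17:35192881-35202840, 9960 bp) that also spans Ltb, the gene of lymphotoxin beta; its midpoint lay 1507 bp from Tnf and 1555 bp from Ltb, so its reads cannot be given to either gene. It read 25.2, 19.6 and 0 in DDC hepatocytes and 95, 74.8 and 69.4 in reprogrammed cells. The groups did not overlap, but the rise missed the threshold (3.30 ± 1.11, n = 3 per group, adjusted p = 0.0577, limma). The 0 of DDC hepatocyte library 3 stood where 26.7 reads were expected from the other libraries of its group; of 1086 rows of at least 5 kb that expected 20 or more reads there, this was the 1 without any. Without that library the change was 1.78 (adjusted p = 0.260). With edgeR's quasi-likelihood test on the recovered reads it was 2.17 (adjusted p = 3.20e-05), and in a limma fit of just these groups 3.30 (adjusted p = 0.00511). DDC biliary cells read 106, 98.6 and 108, and untreated biliary cells 34.8, 32.0 and 26.9.

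Il1b and Il6 were not among the called genes. The 3 rows of Il1b lay 26.3 to 42.6 kb from the gene, none at its start, and summed to 12, 9.10 and 7.55 in DDC hepatocytes and 14.1, 9.36 and 7.36 in reprogrammed cells. Its change of 0.08 ± 0.41 (95% interval −0.80 to 0.95, adjusted p = 0.937, limma) was smaller than the spread. Its most accessible row, row 1, read 10.9, 6.21 and 3.99 in reprogrammed cells and 6.83, 2.87 and 3.36 in DDC hepatocytes. That row held 68.2% of the Il1b sum in reprogrammed cells and 45.7% in DDC hepatocytes. It lay between Il1b and Il1a, genes 54.4 kb apart, with its midpoint 26.3 kb from Il1b, so its reads cannot be given to Il1b alone. The Il6 row (chr5:30013067-30013497, 431 bp) straddled the gene's start and stayed between 0 and 2.05 in every library. Its means were 1.16 ± 0.449 in DDC hepatocytes, 0.735 ± 0.300 in reprogrammed cells and 1.65 ± 0.600 in DDC biliary cells, too low for a test.

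**Figure D2:**
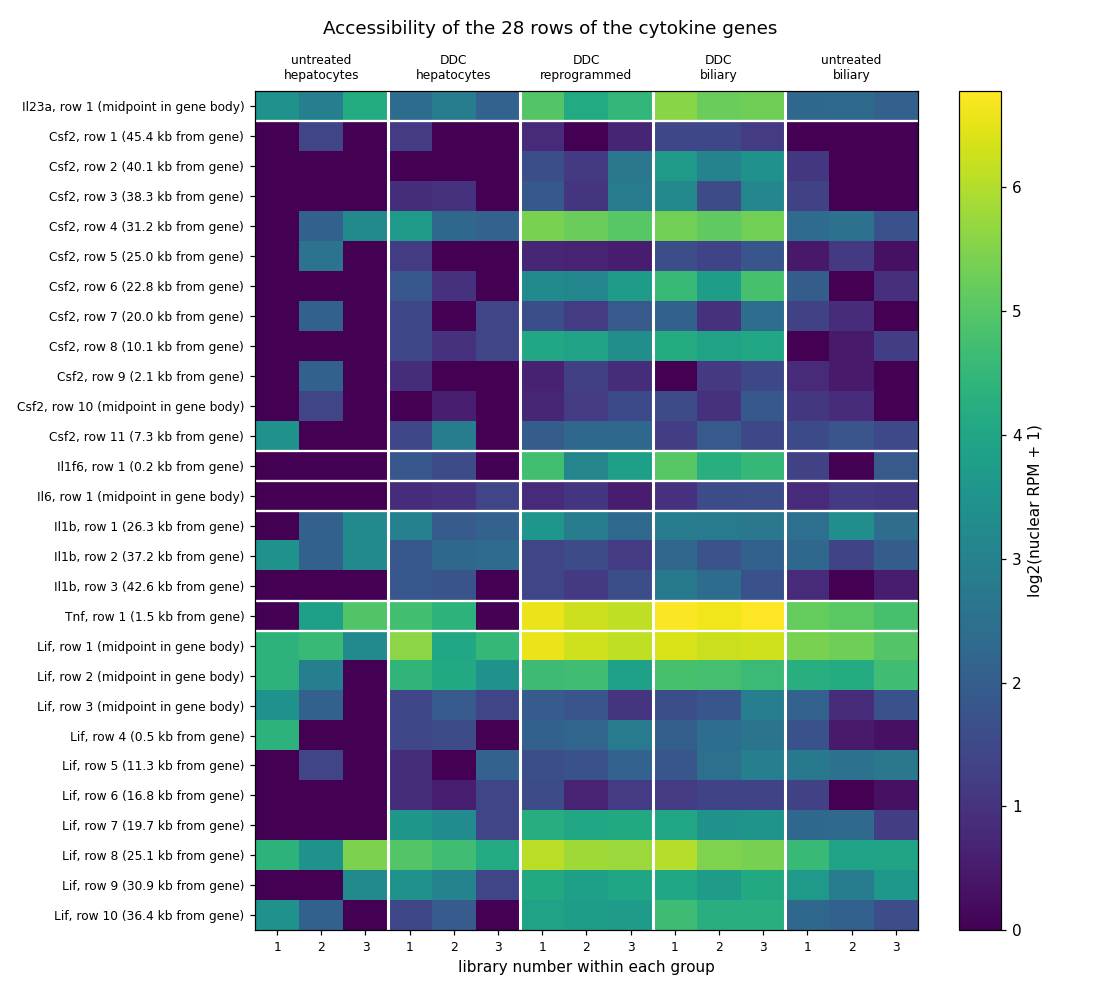
Heat map of log2(nuclear RPM + 1) (colour) for the 28 rows (y axis, by gene and by distance of the row's midpoint from the gene body) in 15 libraries (x axis, 3 per group). Rows 2, 4, 6 and 8 of Csf2 brighten in reprogrammed and DDC biliary cells while row 10 in the gene body stays dark; many cells of the untreated hepatocyte columns hold 0 reads.

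The row calls leaned on single libraries more than the gene calls did. Leaving out 1 library at a time left 4 to 5 member genes called, but 2 rows without reprogrammed library 1 and 5 rows without DDC hepatocyte library 2 or without library 3. The rows called without reprogrammed library 1 were Il23a row 1 and Csf2 row 8. With all libraries thinned to the depth of the shallowest, 2 genes were called, Tnf (3.82, adjusted p = 0.0186) and Lif (1.19), while Il23a, Csf2 and Il1f6 stood at 1.39, 2.38 and 2.89 (adjusted p = 0.546, 0.0931 and 0.185).

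Between untreated and DDC hepatocytes 0 of the 7 genes were called, near the background share and at a depth that limits the comparison. This comparison asks whether the injury alone changed the hepatocytes that were not labelled reprogrammed. The count was 0 higher (background 9.63%) and 0 lower (3.90%; limma, adjusted p under 0.05; 1 had an unadjusted p under 0.05, Il23a). The changes were 0.15 ± 0.41 for Csf2 (adjusted p = 0.830), 1.13 ± 0.60 for Il1f6 (0.207), 0.35 ± 0.26 for Lif (0.368), 0.10 ± 1.11 for Tnf (0.962) and −0.14 ± 0.41 for Il1b (0.842), with the median of all genes at 0.21. Csf2 read 9.92, 18.2 and 8.52 and Lif 99.2, 47.9 and 59.6 in untreated hepatocytes, and both overlapped DDC hepatocytes. With edgeR the count was also 0 genes. On the deposited scale, which counts mitochondrial reads in the total, 3 genes were called, and the mitochondrial share was 63.1 to 84.2% in untreated and 29.1 to 42.4% in DDC hepatocytes.

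Among rows 1 of 28 was called higher (background 9.94%) and 0 lower (2.20%; 1 at unadjusted p under 0.05, and 0 with edgeR). This was row 7 of Lif at 19.8 kb (chr11:4291433-4293091), with 0 reads in every untreated hepatocyte library and 11.1, 8.62 and 1.68 nuclear RPM in DDC hepatocytes. That is at least 2.48-fold higher than 3 reads over the untreated group; the fitted change of 2.76 ± 0.54 (adjusted p = 0.00400) depends on the added 1. The call was lost in a fit of just these groups (adjusted p = 0.257) and after thinning (0.427). Row 7 of Lif read 17.6, 15.7 and 16.2 in reprogrammed cells (1.37 ± 0.54 above DDC hepatocytes, adjusted p = 0.102).

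**Figure D3:**
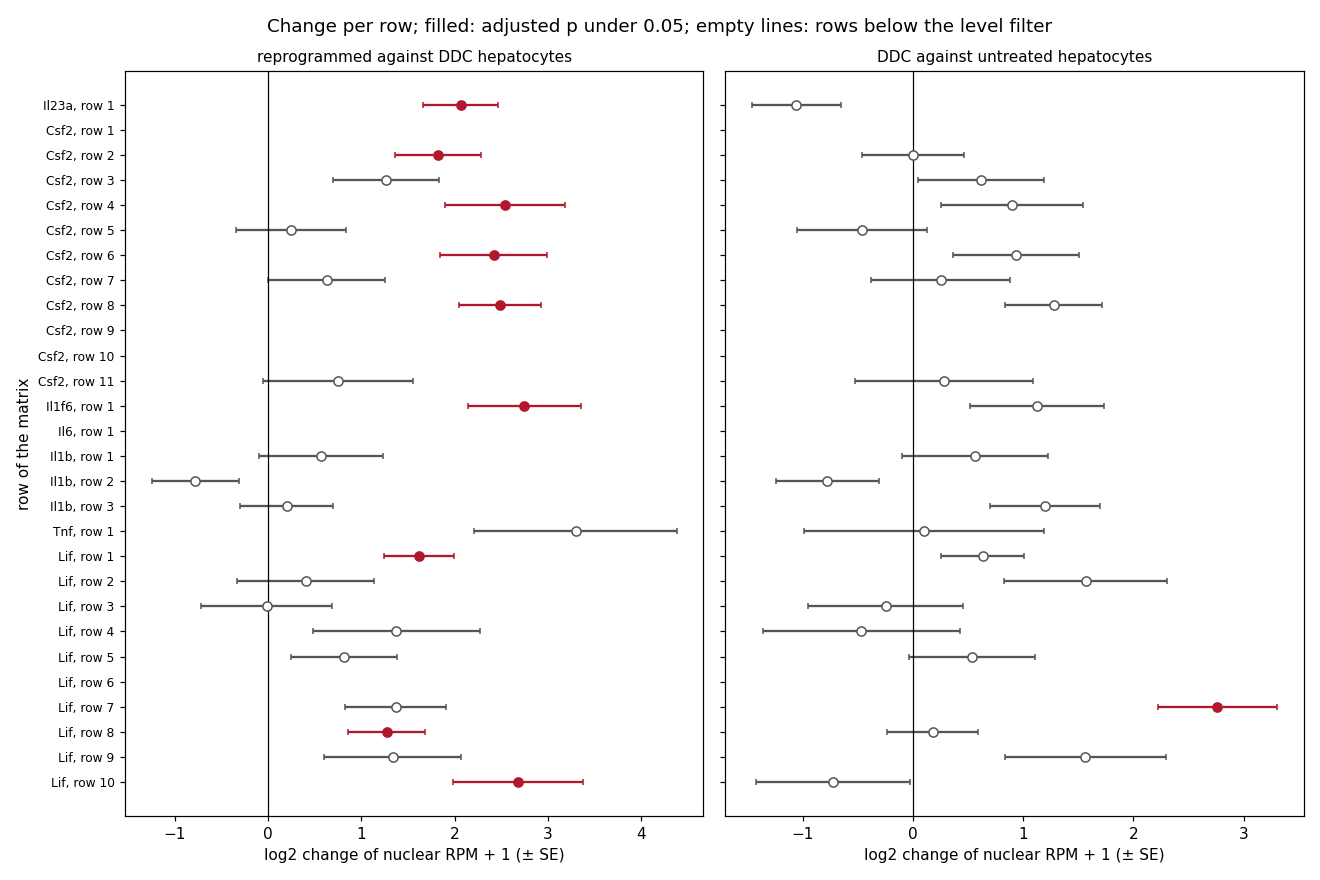
Change per row on the log2(nuclear RPM + 1) scale (x axis, estimate ± SE, linear) for reprogrammed against DDC hepatocytes (left) and DDC against untreated hepatocytes (right); filled points have an adjusted p under 0.05 and rows without a point had a mean under 1. On the left 9 points are filled, all above 0; on the right 1 is, row 7 of Lif.

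In biliary cells the rise under DDC chose Il23a, Csf2 and Il1f6, and the values are given without a test. The differences were 3.14 ± 0.40 for Il23a, 3.12 ± 0.41 for Csf2 and 3.52 ± 0.60 for Il1f6, that is 11, 9.08 and 16.8 times the untreated mean. Of the members not chosen on this rise, Lif differed by 1.12 ± 0.26, Tnf by 1.72 ± 1.11 and Il1b by 0.47 ± 0.41. DDC libraries lay wholly above untreated ones for 6 of 7 genes and 17 of 28 rows, where 20.8% of all genes and 21.8% of all rows did; since the rule used this contrast, nothing is read from these counts. Il6 was the gene that overlapped.

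Within Csf2, rows 2, 4, 6 and 8 were higher in DDC biliary cells too. Row 8 went from 0, 0.410 and 1.37 in untreated to 16.8, 14 and 15.3 in DDC biliary cells (3.45 ± 0.44), and row 6 from 3.02, 0 and 0.911 to 22.7, 12.6 and 26.7 (3.39 ± 0.57). Row 4 differed by 3.05 ± 0.64 and row 2 by 3.02 ± 0.46. Row 11, the one on the side of Il3, differed by −0.08 ± 0.80, with values of 1.35 to 2.72 in DDC and 1.82 to 2.46 in untreated biliary cells.

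At Il23a, Il1f6, Csf2 and Tnf the mean of reprogrammed cells lay between those of DDC hepatocytes and DDC biliary cells. Taking the distance between the means of those groups as 100%, reprogrammed cells had covered 50.4% at Il23a, 61.8% at Il1f6, 68.9% at Csf2, 72.4% at Tnf and 100% at Lif. At Il1b they had covered 21.2%, and at Il6, where levels are near the limit of detection, they lay below both groups (−87.7%). Both this comparison and the next share libraries with the one that chose the members, so they carry no test. High DDC biliary values favoured the choice of Il23a, Csf2 and Il1f6, which can lower their percentages and place their reprogrammed libraries below. Their percentages are therefore not ranked against those of Tnf and Lif. Against DDC biliary cells the differences were −0.84 ± 0.40 for Il23a, −0.72 ± 0.60 for Il1f6, −0.42 ± 0.41 for Csf2, −0.40 ± 1.11 for Tnf and 0.00 ± 0.26 for Lif. Reprogrammed libraries were wholly below DDC biliary ones for 3 of 7 genes (Il23a, Csf2 and Tnf; 10.5% of all genes), 9 of 28 rows (12.7% of all rows), and wholly above for 1 row (11.4%), row 11 of Csf2.

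Among the tested rows of Csf2, row 2 stood at −1.56 ± 0.46 against DDC biliary cells, row 6 at −1.02 ± 0.57 and row 5 at −0.95 ± 0.59. Rows 2 and 5 were tested only because DDC biliary cells are high in them (means without those cells 0.825 and 0.813). That favours negative differences. Rows 3, 7 and 11 stood at −0.74 ± 0.57, −0.26 ± 0.63 and 0.65 ± 0.80, and rows 4 and 8 at −0.04 ± 0.64 and −0.27 ± 0.44. The 95% intervals of rows 4 and 8 ran from −1.41 to 1.32 and from −1.20 to 0.67. Against untreated biliary cells, the epithelium at rest, reprogrammed cells were higher by 2.30 ± 0.40 at Il23a, 2.70 ± 0.41 at Csf2, 2.80 ± 0.60 at Il1f6, 1.11 ± 0.26 at Lif and 1.32 ± 1.11 at Tnf. They lay wholly above for 5 of 7 genes (18.8% of all genes) and 15 of 28 rows (18.4% of all rows).

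Among 52 related ligands, receptors and signal genes (45 tested), 12 were called higher and 5 lower in reprogrammed cells than in DDC hepatocytes (8.0% and 6.43% of all genes tested), with a median change of 0.27 against 0.12 for all genes. Ligands gave 8 higher and 3 lower of 29 (22 tested; median 0.77), receptors 1 and 2 of 13 (median −0.51), and signal transducers and feedback genes 3 and 0 of 10 (median 0.28). Csf2ra, the ligand-binding chain of the GM-CSF receptor, rose from 84.1, 56.0 and 52.0 to 209, 286 and 184 (1.81 ± 0.21, adjusted p = 0.000167, limma). In untreated biliary cells Csf2ra read 195, 255 and 231, within its range in reprogrammed cells, whereas Csf2 read 15.5, 11.1 and 6.61 there, below its range in them. Csf2rb, the gene of another chain of that receptor, stood at −0.60 ± 0.53 (adjusted p = 0.524). Clcf1, a cytokine of the IL-6 family, rose from 126, 80.9 and 77.2 to 254, 260 and 203 (1.36 ± 0.21, adjusted p = 0.000889). For neither Csf2ra nor Clcf1 did the groups overlap.

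Il11, another member of the IL-6 family, rose from 6.40, 6.70 and 11.8 to 32.8, 28.3 and 26.3 (1.74 ± 0.38, adjusted p = 0.00658). Il17c, an epithelial cytokine, went from 3.84, 0 and 2.52 to 13.5, 5.90 and 17.0 (2.24 ± 0.56, adjusted p = 0.0139). Il1a, which encodes IL-1 alpha, went from 0.854, 1.92 and 0 to 14.4, 7.43 and 7.15 (2.54 ± 0.68, adjusted p = 0.0210). Il27, which encodes a subunit of IL-27, fell from 3.84, 5.75 and 8.39 to 1.32, 0.305 and 1.26 (−1.83 ± 0.59, adjusted p = 0.0487). Untreated hepatocytes read 0, 3.30 and 0 at Il27, which was called higher in DDC than in untreated hepatocytes (2.05 ± 0.59, adjusted p = 0.0331, limma). In reprogrammed against DDC hepatocytes, Il17c and Il1a each lost the call on leaving out any of 3 libraries, and Il27 on leaving out any of 6. These were reprogrammed libraries 1 and 3 and DDC hepatocyte library 2 for Il17c (highest adjusted p = 0.0701), and reprogrammed libraries 1 and 2 and DDC hepatocyte library 3 for Il1a (0.1025). The count of 12 fell to 4 without reprogrammed library 1, to 6 without library 2, to 7 without library 3 and to 6 without DDC hepatocyte library 2 or 3.

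The receptor partners of the members were looked up after their values had been seen. Lifr, which binds LIF, fell (−0.80 ± 0.13, adjusted p = 0.00142, limma), from 243, 242 and 197 to 135, 109 and 147. Il6st, the shared signalling chain, stood at 0.23 ± 0.17 (adjusted p = 0.425). Il12b, the partner subunit of Il23a, stood at 0.48 ± 0.41 (0.508) and the receptor gene Il23r at −0.30 ± 0.38 (0.692). In DDC against untreated hepatocytes the related list gave 8 higher and 2 lower of 45 tested (9.63% and 3.90% of all genes); over all genes that comparison fell to 1 call in a fit of just these groups.

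**Figure D4:**
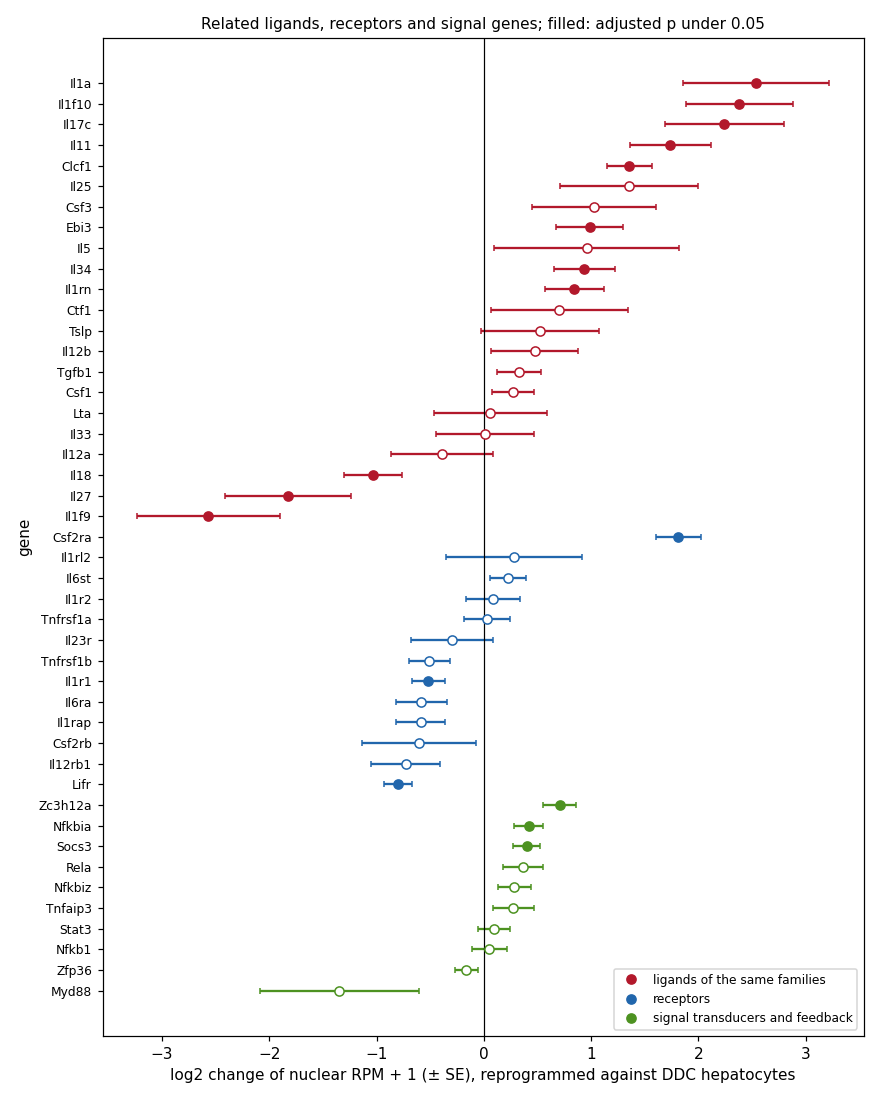
Change of the 45 tested related genes on the log2(nuclear RPM + 1) scale (x axis, estimate ± SE, linear), reprogrammed against DDC hepatocytes, ordered within ligands, receptors and signal genes (y axis); filled points have an adjusted p under 0.05. Il1a, Il1f10 and Il17c lead the ligands, Il1f9 and Il27 lie at the other end, and Csf2ra is the 1 filled receptor above 0.

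The genes whose pattern over the 15 libraries was most like that of Il23a were St6gal1, a sialyltransferase (Pearson r of log2 values 0.96), Abcc8 (0.95) and Dkk2, a Wnt inhibitor (0.94). For Csf2 they were Add2 (0.96), Bcl3, an NF-kB cofactor (0.95) and H2-M2 (0.94), and for Il1f6 Gip (0.98), Zcwpw1 (0.96) and Ctla2b (0.96). The correlations are descriptions over libraries that share group and depth.

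Leukocytes can carry open cytokine genes, so their markers are set beside the rise from DDC hepatocytes to reprogrammed cells. The 3 pan-leukocyte markers summed to 28.2 to 50.4 nuclear RPM in DDC hepatocytes and 23.1 to 32.2 in reprogrammed cells, and Ptprc, which encodes CD45, fell (−1.33 ± 0.42, adjusted p = 0.0434, limma). The other 2 of these markers stood at 0.60 ± 0.66 (Laptm5, adjusted p = 0.632) and 0.52 ± 0.53 (Coro1a, 0.589). Macrophage markers (2 of 7 with rows, Csf1r and Cd68) summed to 85.7 to 148 and 88.9 to 114, and neutrophil and monocyte markers (3 of 7) to 12 to 17.9 and 11.2 to 21.2. T and NK markers (4 of 7) summed to 32.4 to 37.4 and 31 to 40.2, within which Cd8a (2.0 ± 0.39, adjusted p = 0.00331) and Lck (1.15 ± 0.36, adjusted p = 0.0417) rose, while Cd4 stood at −1.85 ± 0.61 (adjusted p = 0.0523) and Cd3e at 0.31 ± 0.59 (0.800).

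The sums of biliary, of hepatocyte and of stellate and fibroblast markers also differed between DDC hepatocytes and reprogrammed cells, without overlap. The 7 biliary markers summed to 249 to 339 in DDC hepatocytes and 787 to 896 in reprogrammed cells, with 7 of 7 higher. The hepatocyte markers (6 of 7 with rows) summed to 1570 to 2103 and 352 to 573, with 5 of 6 lower. Stellate and fibroblast markers (5 of 5) summed to 122 to 161 and 220 to 243, with Col1a1 higher, and endothelial markers (5 of 5) to 159 to 184 and 112 to 166, with Pecam1 higher (0.93 ± 0.28, adjusted p = 0.0386) and Stab2 and Lyve1 at −0.84 ± 0.31 (0.0822) and −1.46 ± 0.50 (0.0628). The part of these cell types in the rise of Il23a, Csf2, Il1f6 and Lif was not tested. Between untreated and DDC biliary cells the biliary sums were 1079 to 1196 and 1101 to 1235. Of the biliary markers 0 of 7 were called in either direction (limma, adjusted p under 0.05). Over all genes 2.17% were called higher and 1.08% lower. At unadjusted p under 0.05 were 3 markers, Epcam (0.72 ± 0.19) and Cftr (1.03 ± 0.35) higher and Spp1 (−0.82 ± 0.26) lower. In the same comparison the neutrophil and monocyte markers summed to 6.83 to 9.43 in untreated and 12 to 18.2 in DDC biliary cells, and the endothelial markers to 69.3 to 96.7 and 105 to 124, both without overlap, with Pecam1 at 1.0 ± 0.28 (adjusted p = 0.0654). Their part in the biliary rise of the cytokine genes was not tested.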

How the data were processed

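ATAC-seq was measured in 15 libraries, 3 per group. The deposited values are called TPM by the authors but hold RPM (a region's reads scaled to 1e6 over the matrix, undivided by length): 100% of values up to 100 reads were whole multiples of 1 read (tolerance 0.02), though for reprogrammed library 1 the step lies near a power of 10 and shows less on its own. Bowtie2, SAMtools, MACS2, bedtools and mm10 are named, per the submitters' processing notes; their settings, the treatment of duplicate reads and the merging of regions have no statement in the sources used here. Columns were rescaled to 1e6 without the mitochondrial chromosome, and rows tied to RefSeq genes of the same build. Changes are limma-trend estimates on log2(nuclear RPM + 1) over all 15 libraries, for features of mean 1 or more (16378 genes, 79075 rows), with Benjamini-Hochberg adjustment over all of them; the added 1 understates changes of low rows. Members, lists and tests were chosen with earlier results of these data known. Named were all members, in each gene the row of highest mean and every row called, the 8 called genes of the related list with the largest change, and 3 genes of like pattern each for Il23a, Csf2 and Il1f6; further genes are said to be so. Alternatives were other scalings, edgeR on the recovered reads with TMM or DESeq2 size factors, a pseudocount of 0.25, no filter, fewer groups, a replicate block, each library left out, thinning, other row assignments and, added after seeing the data, a fit without untreated hepatocytes. One leukocyte marker list is not reported here. The procedure was tested on simulated data. The software was limma 3.58.1, edgeR 4.0.16 and DESeq2 1.42.0 under R 4.3.3, and pandas 2.3.3 with numpy 2.4.6 under Python 3.11.15.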

Additional observations from a re-analysis of the deposited data

Results flagged for a closer look

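On the nuclear RPM scale, the DDC libraries of Il23a lay on opposite sides of the untreated ones in the 2 lineages. Every DDC biliary library lay above every untreated biliary one, and every DDC hepatocyte library lay below every untreated hepatocyte one. The DDC effect in biliary cells minus that in hepatocytes was 4.20 on the log2 scale. The difference was not tested, since the biliary rise chose the gene. The untreated hepatocyte side rests on 10 reads, the hepatocyte difference did not pass (−1.06, adjusted p = 0.0892, limma), and it turned to 0.28 on the deposited scale, 0.26 after thinning and 0.18 with all rows within 50 kb.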

How the results depend on the processing

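The alternatives bear most on counts over all features. For reprogrammed against DDC hepatocytes the 2363 genes and 11232 rows called became 3995 genes and 24698 rows on the deposited scale, 4944 and 25187 with edgeR and TMM, 4954 and 25828 with edgeR and DESeq2 size factors, 4425 and 24731 with only the groups compared, 727 and 464 after thinning, 5742 and 29295 without untreated hepatocytes, and 3617 genes with all rows within 50 kb. For DDC against untreated hepatocytes the 2217 genes and 9598 rows became 13749 and 33748 on the deposited scale, 804 and 5509 with edgeR and TMM, 868 and 1501 with DESeq2 size factors, 1 and 0 with only the groups compared, 250 and 208 after thinning, and 4150 genes with all rows within 50 kb. The deposited scale moved the median change of all genes from 0.12 to 0.56 in the first comparison and from 0.21 to 1.54 in the second, and the share of called genes that were higher from 55.4% to 89.5% and from 71.2% to 99.9%; in the second, edgeR gave 56.1% with TMM and 48.4% with DESeq2 size factors. For called rows the deposited scale moved that share from 57.3% to 75.4% and from 81.9% to 99.4%, and TMM the second to 93.6%.

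Of the cytokine genes 4 were called in reprogrammed cells; the count was 2 after thinning and 1 with rows in gene bodies only, where just Il23a and Lif reached the mean needed for a test. Of their rows 9 became 14 on the deposited scale and 1 after thinning. Counted as higher in DDC against untreated hepatocytes, 0 genes became 3 on the deposited scale and 1 without the filter. The 1 row called higher became 6 on the deposited scale, 2 with a pseudocount of 0.25 and 2 without the filter. It became 0 with DESeq2 size factors, with only the groups compared and after thinning. The related list's 12 became 3 after thinning and 7 in gene bodies only. Taking all rows within 50 kb turned Il23a to −0.13 (adjusted p = 0.594), Il1f6 to −0.27 (0.816) and Il27 to 0.65 (0.0443), since rows of neighbouring genes then enter the sum. The deposited scale turned Il1b in DDC against untreated hepatocytes from −0.14 to 1.13 (adjusted p = 0.00723) and Il23a from −1.06 to 0.28 (0.460); Il23a also turned after thinning (0.26) and with all rows within 50 kb (0.18). In this comparison Csf2 and Tnf, at 0.15 and 0.10, changed sign on leaving out single libraries as well, to as low as −0.26 and −1.36. Except where a reason is given, the cause was not tested.

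For reprogrammed against DDC hepatocytes, leaving out 1 library at a time gave 4 to 5 member genes and 2 to 9 member rows called higher. Of the related list 4 to 9 genes were called higher. Over all features the calls in either direction were 1065 to 1897 genes and 3320 to 8302 rows. For DDC against untreated hepatocytes 0 member genes and 1 to 2 member rows were called higher. Il23a was called lower without untreated hepatocyte library 2 (−1.35, adjusted p = 0.0179, limma). Over all features that comparison gave 815 to 4554 genes and 5737 to 19201 rows in either direction. Whether replicate numbers pair the libraries stays unsettled. Between reprogrammed and DDC hepatocytes, deviations of same-numbered libraries correlated at 0.18, 0.02 and 0.17, and those of differently numbered ones at −0.18 to 0.04. Same-numbered libraries correlated at −0.03, 0.07 and 0.06 between DDC and untreated hepatocytes, and at −0.14, −0.098 and 0.01 between DDC and untreated biliary cells. With the replicate block 4 genes and 9 rows of the members were called, as without it. Il27 then lost its call (−1.83, adjusted p = 0.0677, limma) and the related list gave 8. Depth limits untreated hepatocytes most: in them 9 of the 28 rows had no read in any library.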
